A study of Mus musculus with 28 samples.

Results

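The interaction of semaglutide and training was measured in the kidney of diabetic mice, as the effect of training under semaglutide minus the effect of training without it. It was computed per gene as combined − HIIT − semaglutide + control, over the 16 kidney libraries of a series of 28. Of 21797 named genes in the kidney table, 11551 reached 1 FPKM in at least 4 libraries and were tested. FPKM, fragments scaled to transcript length and library total, were scaled between libraries by median ratios ("scaled FPKM" below). Contrasts are on the log2(scaled FPKM + 1) scale, which understates the change of weakly expressed genes, with their standard error after ±. A positive contrast means that training moved a transcript up more, or down less, under semaglutide than without it.

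The mice were male C57BL/KsJ db/db animals, all lacking a working leptin receptor, and therefore obese and diabetic. They were 8 weeks old at the start and were followed for 8 weeks. The 4 groups, of 4 libraries each, were control without either treatment, HIIT (high-intensity interval training, treadmill bouts of 4 min repeated 10 times with recoveries of 2 min on 5 days per week), semaglutide without training, and the 2 treatments together (combined). For semaglutide, 1 label states 0.05 mg/kg and another 30 nmol/kg once daily, amounts that differ from each other. Polyadenylated RNA of bulk kidney was sequenced, so fewer cells of a type and less RNA per cell cannot be told apart. No label links a library to its own animal, so the p-values reflect how these libraries vary among themselves, and that variation may be technical.

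Semaglutide activates the receptor of the gut hormone GLP-1 and is cleared slowly. In kidney that receptor is known mainly from vascular smooth muscle and renin-producing cells. Effects of a drug and of exercise on a tissue can add up, overlap or oppose each other, and an interaction contrast measures the departure from adding up on the scale used. In the diabetic kidney, BMP signalling and its secreted antagonists, water and salt transport in the collecting duct, the tubular clock, vitamin D activation and lipid storage have each been studied as parts of the response to injury or metabolic load.

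No gene passed the test for the interaction. limma with Benjamini-Hochberg adjustment called 0 of 11551 genes (0%), and the adjusted p of every gene was 1.00. At an unadjusted p under 0.05 there were 304 genes (2.63%), 145 with a positive contrast (1.26%) and 159 with a negative one (1.38%). The smallest unadjusted p, 0.000204, belonged to Tsc22d1. Of the 304 genes, 117 (1.01% of those tested) also had a p under 0.05 in each of the 16 fits that left out 1 library, 53 of them positive (0.459%) and 64 negative (0.554%). The plot of p-values shows fewer small values than an equal spread over the bins would give.

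**Figure D1:**
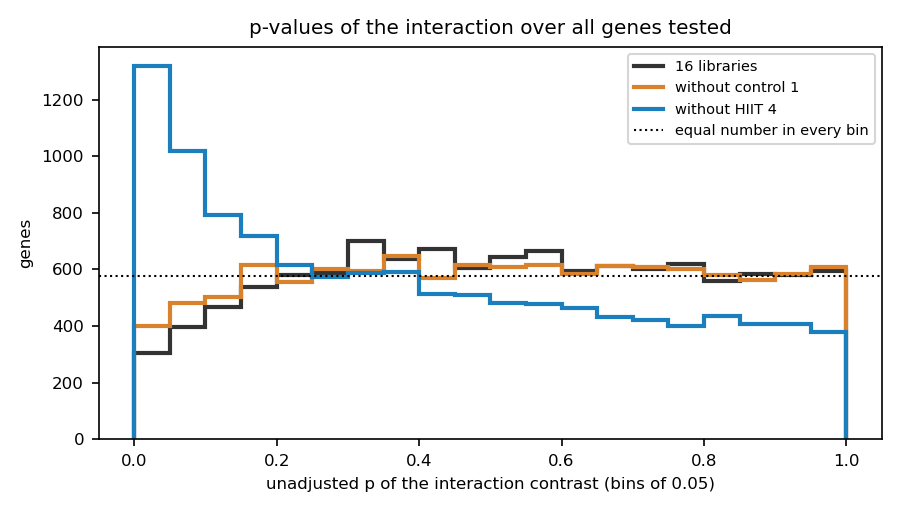
Number of genes (vertical axis) by unadjusted limma p of the interaction (horizontal axis, bins of 0.05) with all 16 libraries, without control 1 and without HIIT 4; the dotted line is an equal number in every bin. The lowest bin holds 304 genes with all libraries, 400 without control 1 and 1321 without HIIT 4.

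The contrasts were centred near 0 and few were large. Over all genes tested the median was 0.0069, with 5919 contrasts above 0 and 5632 below. The 5th and 95th percentiles were -0.44 and 0.45, and 102 genes had an absolute contrast of at least 1, 71 of them positive and 31 negative. The 95% confidence interval reached a median of 0.51 to either side of the estimate, and for 9133 genes (79.1%) it lay wholly between -1 and 1 on the log2(scaled FPKM + 1) scale. On this scale a contrast of 1 stands for more than a doubling in weakly expressed genes.

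The effects whose difference forms the contrast were themselves at most weakly separated from the spread. limma called 0 genes (0%) for HIIT against control, 0 (0%) for combined against semaglutide and 0 (0%) for semaglutide against control. Unadjusted p under 0.05 was reached by 1014 genes (8.78%) for training without semaglutide and by 163 (1.41%) for training under semaglutide. The corresponding numbers for semaglutide were 493 genes (4.27%) without training and 676 (5.85%) under training. For combined against HIIT 2 genes (0.0173%) passed, among them Coq10b, a coenzyme Q binding protein of mitochondria (14.6 ± 0.511 scaled FPKM with HIIT and 24.9 ± 2 with both, SD, n = 4). Coq10b rose by 0.72 ± 0.11 at limma adjusted p = 0.0384, and its interaction contrast was 0.23 ± 0.15. The count of 2 became 0 in 13 of the 16 fits without 1 library, all except those without control 1 (3 genes), HIIT 4 (7) and combined 1 (1).

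Among the 304 genes with the smallest p values, nearly all had single treatments on the same side of control. A positive contrast came with both single treatments below control in 136 genes (44.7%), and a negative one with both above control in 149 (49%). The group means of these shapes also enter the contrast, so the shapes are a description. The mean of the combined group lay within the range of the other 3 group means for 207 of the 304 genes (68.1%), against 7328 of all 11551 (63.4%). Zfp623, described below, was the single gene of 11551 (0.00866%) whose 8 control and combined libraries did not overlap its 8 HIIT and semaglutide libraries.

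Control 1 stood apart from the other libraries, and HIIT 4 from the other HIIT libraries in array weight and marker sums. The median correlation of control 1 with the rest was 0.911, against 0.96 to 0.98 for the other 15. HIIT 4 and HIIT 1 were both at 0.96, so the correlation did not single out HIIT 4. The limma array weights were 0.17 for control 1 and 0.21 for HIIT 4, against 0.63 to 2.41. Summed FPKM ran from 495273 to 662489, the table holds no read counts, and the depth of the libraries is unknown. The median-ratio scale factors, by which FPKM were divided, ran from 0.688 in HIIT 1 to 1.31 in control 1. Control 1 held 2780 scaled FPKM over the macrophage markers (32.3 to 99.3 elsewhere), 3080 over the MHC class II genes (98.4 to 361), 1210 over the B and plasma cell markers (38.6 to 74.7) and 185 over the neutrophil markers (0.712 to 7.91), with 2660 over the proximal tubule markers (5530 to 16300), or 2020 without Kap (2580 to 4520), an androgen-responsive transcript that ran from 639 to 12300 over the 16 libraries. HIIT 4 held 3300 of Kap against 7720 to 12300 in the other HIIT libraries, 3360 over the other proximal tubule markers against 3510 to 4200, 1250 over the markers of the thick ascending limb against 450 to 669, and 59.9 over the podocyte markers against 143 to 187. Other groups held lower values than HIIT 4 for Kap (1940 in semaglutide 3) and the other proximal tubule markers (2580 in semaglutide 2). For the thick ascending limb they held higher ones (1530 in semaglutide 2). The podocyte sum of HIIT 4 was the lowest of the 16 libraries. Proximal tubule, thick ascending limb, distal, collecting duct and podocyte markers were detected in every library, and the kidney label was not contradicted. Without HIIT 4, 1321 genes (11.4%) had an unadjusted interaction p under 0.05 and none passed adjustment (smallest adjusted p = 0.257), and without control 1 the number was 400 (3.46%, smallest adjusted p = 0.379).

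The genes below carry the smallest p values in each direction that held in every fit without 1 library, and they are candidates of this table, not called genes. Their contrasts kept their sign whichever library was left out, which was part of how they were chosen. The plot of 19 of these contrasts shows the size of each with its interval. No interval of these genes includes both signs, which also follows from choosing small p values. The same choice tends to overstate the sizes. The intervals are not adjusted for the number of genes tested, so they are a description and not a test of these genes.

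**Figure D2:**
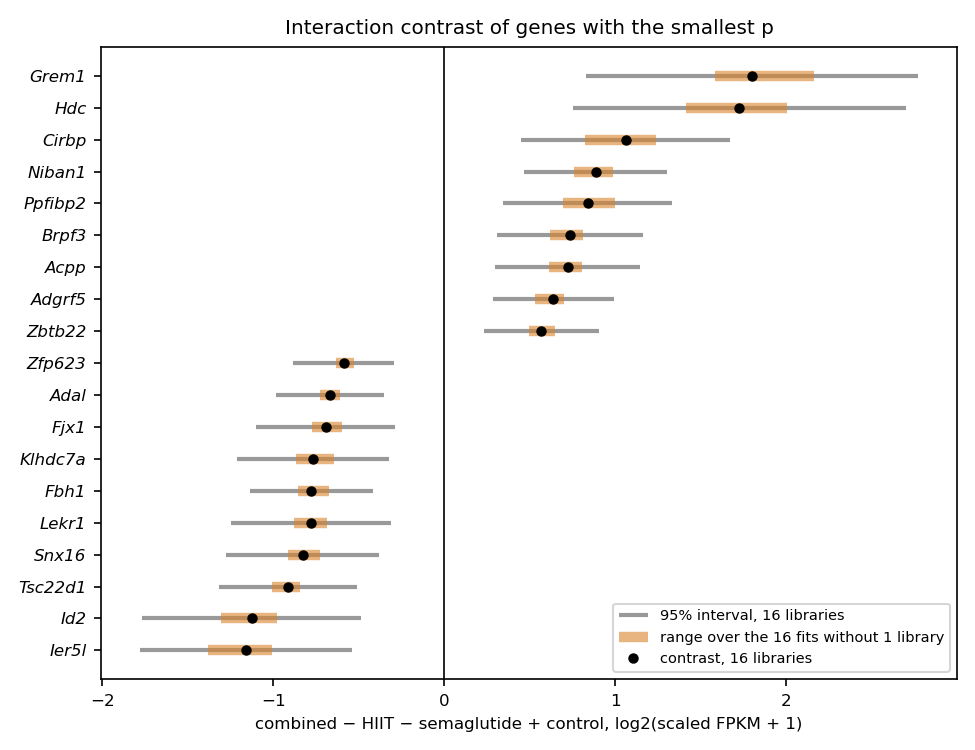
Interaction contrast (log2, horizontal axis) of 19 genes with the smallest p in their direction among those under 0.05 in every fit without 1 library; dots are estimates from 16 libraries, thin lines 95% intervals and thick bars the range over the 16 fits without 1 library. Grem1 (1.80) and Hdc (1.73) lie farthest to the right, and Ier5l (-1.16) and Id2 (-1.13) farthest to the left.

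Grem1, the secreted BMP antagonist gremlin, which binds BMP ligands and keeps them from their receptors, had the largest contrast of the 19. Grem1 measured 2.72, 3.76, 1.83 and 5.67 scaled FPKM in control 1 to 4, 0.805, 4.53, 1.68 and 0.67 in HIIT, 0.13, 0.025, 0.102 and 0.254 in semaglutide, and 1.28, 0.755, 1.88 and 1.73 in combined. All 4 semaglutide libraries were below all 12 others, while the control, HIIT and combined libraries overlapped. The difference of semaglutide from control was -1.93 ± 0.32 (limma adjusted p = 0.0695), that of combined from semaglutide was 1.07 ± 0.32, and the contrast was 1.80 ± 0.46 (95% interval 0.83 to 2.77).

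Id genes encode inhibitors of helix-loop-helix transcription factors and are well known targets of BMP receptors and their SMAD proteins. Id2, one of the 19 genes, measured 86.2, 97, 111 and 74.8 scaled FPKM in control, 156, 105, 159 and 208 in HIIT, 163, 163, 219 and 147 in semaglutide, and 119, 170, 99.9 and 140 in combined. Semaglutide libraries were all above control libraries, HIIT 2 (105) fell within the control range, and combined libraries overlapped all 3 other groups. The contrast was -1.13 ± 0.30 (95% interval -1.77 to -0.49), formed by 0.73 ± 0.21 for training without semaglutide and -0.39 ± 0.21 for training under it.

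The other Id genes were looked up after the values of Id2 were seen. Their contrasts were -0.78 ± 0.40 for Id1, -0.79 ± 0.32 for Id3 and -0.69 ± 0.34 for Id4, with 95% intervals of -1.63 to 0.075, -1.47 to -0.10 and -1.42 to 0.040. Group means of Id4 were 4.2 ± 0.454 in control, 6.08 ± 2.08 in HIIT, 10.5 ± 4.17 in semaglutide and 8.12 ± 1.96 in combined (scaled FPKM, SD, n = 4). Those of Id3 were 31.2 ± 9.64, 43.7 ± 10.3, 55.9 ± 12.2 and 45.4 ± 9.61. For Id1 they were 20.5 ± 5.24, 32 ± 14.3, 34 ± 8.94 and 28 ± 3.74. In all 4 Id genes the control mean was lowest and the semaglutide mean highest, and the combined mean lay between control and semaglutide.

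The promoters of Id2 and Id4 are shown for the GC-rich motif GGCGCC, known as a site of BMP-activated SMAD proteins, in capitals (5′ to 3′ on the gene's strand, RefSeq, GRCm38.p6; the motif reads the same on both strands). The windows are chr12:25096043-25096342 (minus strand) and chr13:48260866-48261165 (plus strand). The motif starts 231 bases before the annotated transcription start of Id2 and 148 bases before that of Id4.
Id2: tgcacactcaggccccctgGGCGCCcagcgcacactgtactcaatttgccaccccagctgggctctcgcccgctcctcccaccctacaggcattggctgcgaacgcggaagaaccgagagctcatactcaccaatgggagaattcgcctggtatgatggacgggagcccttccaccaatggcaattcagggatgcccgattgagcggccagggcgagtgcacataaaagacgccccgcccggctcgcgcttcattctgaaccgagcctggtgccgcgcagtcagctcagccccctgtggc
Id4: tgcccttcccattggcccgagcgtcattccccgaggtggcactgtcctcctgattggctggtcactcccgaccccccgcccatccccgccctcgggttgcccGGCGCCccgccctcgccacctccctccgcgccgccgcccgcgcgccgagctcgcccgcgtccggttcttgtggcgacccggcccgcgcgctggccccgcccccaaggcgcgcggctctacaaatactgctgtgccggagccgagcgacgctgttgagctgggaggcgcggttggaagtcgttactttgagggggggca
The window of Grem1 also holds 1 match, 78 bases before its start, and that of Id3 holds 0. Of 32851 RefSeq promoter windows of mouse, 3898 (11.9%) hold GGCGCC. A match in these letters describes the window and not a bound site.

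Tsc22d1, a leucine zipper regulator named for its response to TGF-beta, had the smallest p of all genes. It measured 122, 97.2, 90.6 and 96.8 scaled FPKM in control, 140, 124, 107 and 115 in HIIT, 178, 154, 166 and 142 in semaglutide, and 103, 98, 114 and 89.6 in combined. The semaglutide libraries were above all 12 others, narrowly (142 in semaglutide 4 against 140 in HIIT 1), and the combined libraries overlapped the controls. On FPKM before scaling, semaglutide 4 (122) was below control 1 (160) and HIIT 4 (143). The contrast was -0.91 ± 0.19 (95% interval -1.32 to -0.51, limma adjusted p = 1.00). Semaglutide against control was 0.65 ± 0.13 and combined against semaglutide was -0.66 ± 0.13. Tsc22d3, the glucocorticoid-induced family member GILZ, was looked up after this result was seen. Its contrast had the opposite sign, 0.83 ± 0.32 (95% interval 0.16 to 1.51), with HIIT libraries at 12.9 to 19.9 scaled FPKM and all 12 other libraries at 21 to 47.2.

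Fbh1, an F-box DNA helicase that acts at stalled replication forks, measured 10.8, 7.95, 11.9 and 9.87 scaled FPKM in control, 16.4, 15.3, 13.6 and 14.4 in HIIT, 12.2, 15.6, 13.9 and 15.2 in semaglutide, and 10.8, 11.6, 12.6 and 12 in combined. Both single treatment groups were above all controls, narrowly so for semaglutide 1 (12.2, against 11.9 in control 3). The combined libraries overlapped the controls and semaglutide 1. On FPKM before scaling, HIIT (11.2 to 17.9) and control libraries (7.97 to 14.2) overlapped. Its contrast was -0.78 ± 0.17 (95% interval -1.13 to -0.42). Zfp623, a zinc finger gene, measured 3.23, 3.37, 3.17 and 3.38 in control, 3.92, 4.7, 5.1 and 4.02 in HIIT, 4.22, 3.87, 4.46 and 4.02 in semaglutide, and 2.92, 3.78, 3.13 and 3.51 in combined. The lowest single-treatment library (3.87) was above the highest combined library (3.78), so the separation was narrow. The contrast was -0.59 ± 0.14 (95% interval -0.88 to -0.29).

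Adal, an adenosine deaminase-like enzyme, had means of 4.05 ± 0.531 in control, 5.1 ± 0.374 in HIIT, 5.2 ± 0.525 in semaglutide and 3.72 ± 0.389 in combined (scaled FPKM, SD, n = 4), and a contrast of -0.67 ± 0.15 (95% interval -0.98 to -0.35). It overlaps Lcmt2 on the opposite strand, and the sources used here do not give the strand setting of the authors' counting. Snx16, an endosomal sorting nexin, had a contrast of -0.83 ± 0.21 and overlaps Chmp4c in the same way. Ier5l, a relative of an immediate early gene, had -1.16 ± 0.29, with HIIT libraries from 3.59 to 9.04 and combined libraries from 3.01 to 4.27. Klhdc7a had -0.77 ± 0.21, Fjx1, a secreted relative of the fly kinase four-jointed, -0.69 ± 0.19 and Lekr1 -0.78 ± 0.22. These 4 genes were weakly expressed, between 0.542 and 12.2 scaled FPKM in any library. All 10 genes with a negative contrast had both single-treatment means above the control mean.

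Niban1, a stress-induced regulator of translation, measured 3.8, 4.21, 3.31 and 3.24 scaled FPKM in control, 3.07, 2.73, 1.93 and 3.73 in HIIT, 2.39, 1.91, 1.75 and 2.16 in semaglutide, and 3.81, 3.46, 4.26 and 3.07 in combined. The semaglutide libraries were below all control and combined libraries, and HIIT libraries overlapped the other 3 groups. The contrast was 0.89 ± 0.20 (95% interval 0.47 to 1.30), the smallest p of the positive contrasts among the 19 genes. Adgrf5, an adhesion receptor of endothelium and of intercalated cells, had its highest values in combined libraries, 7.77 to 8.28, against 6.01 to 7.53 in control, 4.76 to 6.56 in HIIT and 4.35 to 6.64 in semaglutide. Its contrast was 0.64 ± 0.17 (95% interval 0.28 to 0.99), and the combined libraries did not overlap any other group.

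Hdc, histidine decarboxylase, which makes histamine, measured 8.09, 3.33, 1.81 and 4.71 scaled FPKM in control, 1.12, 2.15, 1.72 and 1.78 in HIIT, 2.25, 1.53, 1.52 and 1.72 in semaglutide, and 2.12, 3.59, 3.08 and 8.23 in combined. The single-treatment groups were low and tight, whereas control and combined libraries ranged widely and reached down into them. The contrast was 1.73 ± 0.46 (95% interval 0.75 to 2.7) and 1.44 without control 1, the library with high immune markers. Acpp, an acid phosphatase, had means of 2.11 ± 0.591, 1.3 ± 0.306, 0.683 ± 0.112 and 1.06 ± 0.139 in control, HIIT, semaglutide and combined, and a contrast of 0.72 ± 0.20, with semaglutide against control at -0.87 ± 0.14 (limma adjusted p = 0.0695).

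Ppfibp2, a liprin-beta scaffold protein, had a contrast of 0.84 ± 0.23, Brpf3, a scaffold of a histone acetyltransferase complex, 0.73 ± 0.20 and Zbtb22, a zinc finger gene, 0.57 ± 0.16. In these 3 genes the HIIT libraries were below all controls, with training without semaglutide at -0.76 ± 0.17 for Ppfibp2. Each overlaps another gene, Ppfibp2 and Brpf3 on the opposite strand and Zbtb22 on the same strand as Tapbp, a gene of peptide loading, so their values are uncertain.

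**Figure D3:**
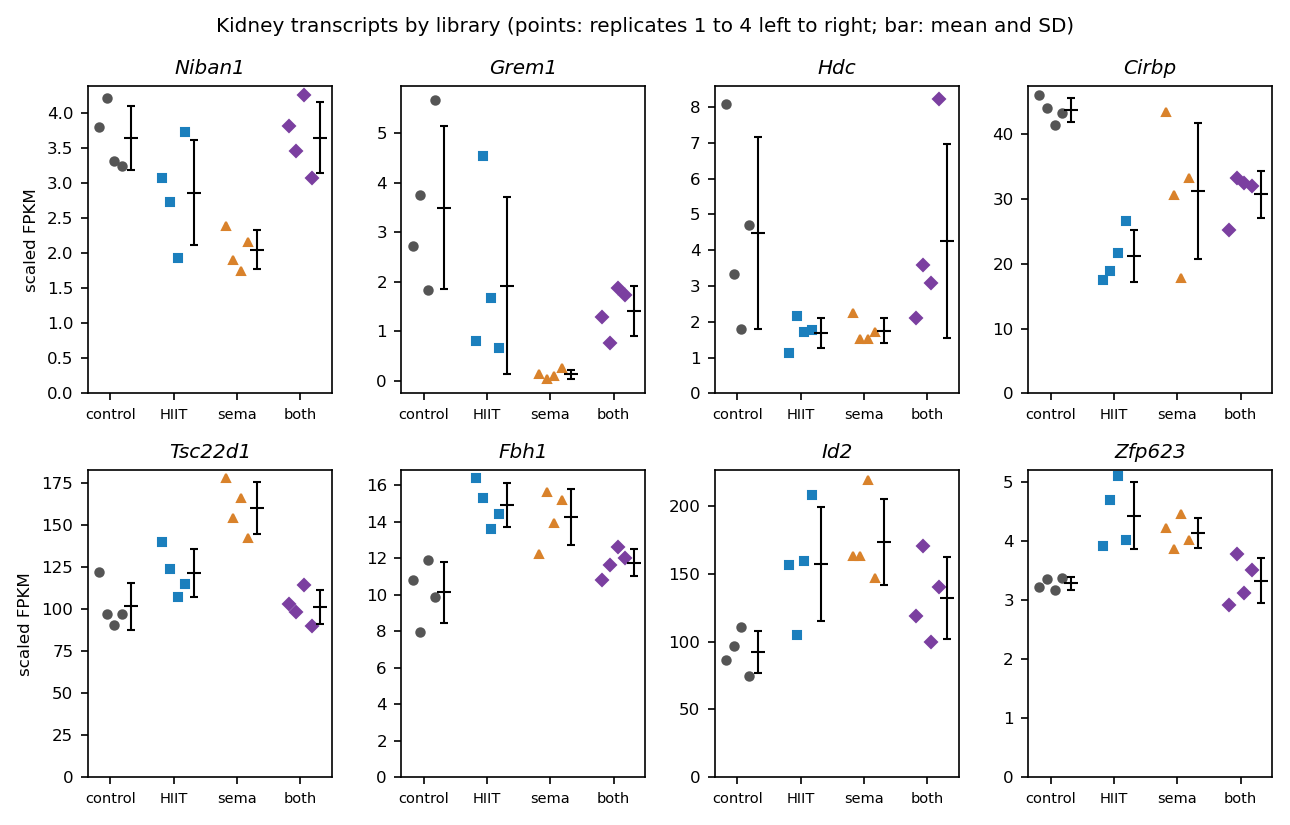
Scaled FPKM (vertical axes, linear) of 8 of the 19 genes in each library; points are control, HIIT, semaglutide (sema) and combined (both) replicates 1 to 4 from left to right, and bars show the group mean and SD (n = 4). The semaglutide mean is lowest for Niban1 and Grem1 and highest for Tsc22d1, and both single treatments are above control for Fbh1 and Zfp623.

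Cirbp, the cold-inducible RNA-binding protein, whose transcript falls with mild heat and follows body temperature through the day, completed the positive contrasts. It measured 46, 44.1, 41.5 and 43.2 scaled FPKM in control, 17.5, 18.9, 21.7 and 26.6 in HIIT, 43.4, 30.6, 17.8 and 33.2 in semaglutide, and 25.2, 33.2, 32.4 and 32 in combined. All HIIT libraries were below all controls, combined libraries lay between them except combined 1 (25.2, under HIIT 4), and the semaglutide libraries spanned nearly the whole range. Training without semaglutide stood at -1.03 ± 0.20 (limma adjusted p = 0.351) and training under it at 0.032 ± 0.20, a contrast of 1.06 ± 0.29 (95% interval 0.45 to 1.67). Rbm3, another cold-inducible RNA-binding protein and looked up after this result, had 0.33 ± 0.22 (95% interval -0.13 to 0.79), with HIIT means of 84 ± 17.3 and 115 ± 20.3 in control.

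Heat shock genes, which encode chaperones for unfolded proteins, had no common direction. Of 13 members tested 6 were above 0 and 7 below, 0 were called, and 1 (7.69%) had an unadjusted p under 0.05 against 2.63% of all genes. The median was -7.5e-05, beside 0.0069 over all genes. That member was Hspa8, the constitutive Hsc70 chaperone, at 346, 369, 336 and 412 scaled FPKM in control, 606, 772, 545 and 401 in HIIT, 608, 687, 825 and 799 in semaglutide, and 698, 575, 597 and 583 in combined. Every semaglutide and combined library was above every control, and HIIT 4 was within the control range. The contrast was -0.87 ± 0.27 (95% interval -1.44 to -0.31), formed by 0.63 ± 0.19 for training without semaglutide and -0.24 ± 0.19 under it. Bag3, a co-chaperone, had 0.53 ± 0.28, and the inducible Hspa1b, named after its values were seen, 1.43 ± 0.79.

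The collecting duct principal cell reabsorbs water through aquaporins, Aqp2 at its apical and Aqp3 at its basolateral membrane, under vasopressin. Of 8 principal cell markers tested 6 had positive contrasts, 0 were called and 2 (25%) had an unadjusted p under 0.05, against 2.63% of all genes. The median was 0.31, and 0.50 without control 1, beside 0.0069 and 0.0041 over all genes. Aqp3 measured 23.6, 50.9, 49.8 and 61.8 scaled FPKM in control, 20.5, 27.4, 32.9 and 42 in HIIT, 42, 31.6, 29.7 and 25.3 in semaglutide, and 44.6, 53.4, 58.5 and 37.9 in combined. Leaving aside control 1, single-treatment libraries were below control libraries, and the combined libraries lay near the controls. The contrast was 1.13 ± 0.38 (95% interval 0.32 to 1.94), and 1.42 without control 1.

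Aqp2 measured 102, 317, 493 and 275 scaled FPKM in control, 221, 250, 186 and 103 in HIIT, 286, 216, 65.1 and 155 in semaglutide, and 531, 298, 375 and 205 in combined. The groups overlapped, with a contrast of 1.57 ± 0.69 (95% interval 0.10 to 3.05) that was 2.02 without control 1. The other 6 markers, among them the epithelial sodium channel subunits Scnn1a, Scnn1b and Scnn1g and the vasopressin receptor Avpr2, had contrasts from -0.29 to 0.41 and no p under 0.05. The summed markers ran from 227 to 723 in control, from 320 to 425 in HIIT, from 251 to 496 in semaglutide and from 402 to 728 in combined, with control 1 lowest of all. The part of principal cell content in the aquaporin contrasts was not tested.

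Slc14a2, the vasopressin-regulated urea transporter of the inner medulla, had the largest positive contrast of all genes tested, 2.87 ± 1.56, with a 95% interval of -0.44 to 6.17. It measured 1.44, 3.31, 29 and 5.49 scaled FPKM in control, 14.9, 3.92, 0.286 and 0 in HIIT, 17.7, 63.2, 0.018 and 5.12 in semaglutide, and 50.5, 28.1, 34.5 and 18.6 in combined. The combined libraries were all high, whereas each other group held libraries more than 10-fold apart. Markers of the urothelium, which lines the renal pelvis beside the inner medulla, also varied between libraries, their sum running from 3.73 to 58.2 in control, 1.06 to 7.39 in HIIT, 1.1 to 57.8 in semaglutide and 1.2 to 74.3 in combined. All 6 tested urothelial markers had positive contrasts (median 0.94) and none a p under 0.05, with Upk1a at 0.97 ± 0.93 and Upk1b at 0.91 ± 0.88. The sources used here do not say how much of the papilla each sample held, and its part in the contrasts of Slc14a2 and the aquaporins was not tested.

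Sgk1, a kinase induced by aldosterone and glucocorticoids that raises sodium uptake and also acts downstream of insulin, measured 86.4, 86.8, 141 and 98.3 scaled FPKM in control, 49.3, 55.7, 57.9 and 41.4 in HIIT, 70.1, 48.9, 104 and 57.2 in semaglutide, and 127, 84.7, 44 and 70.3 in combined. All HIIT libraries were below all controls, and the combined libraries overlapped every group. The contrast was 1.16 ± 0.40 (95% interval 0.31 to 2.01), formed by -0.98 ± 0.28 for training without semaglutide and 0.18 ± 0.28 under it. Of 14 insulin signalling genes tested 9 were above 0 and 5 below, with a median of 0.050. Sgk1 had the only p under 0.05 among them (7.14%, against 2.63% of all genes). Akt1, a kinase downstream of the insulin receptor, had 0.42 ± 0.25, and 0.24 without control 1.

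**Figure D4:**
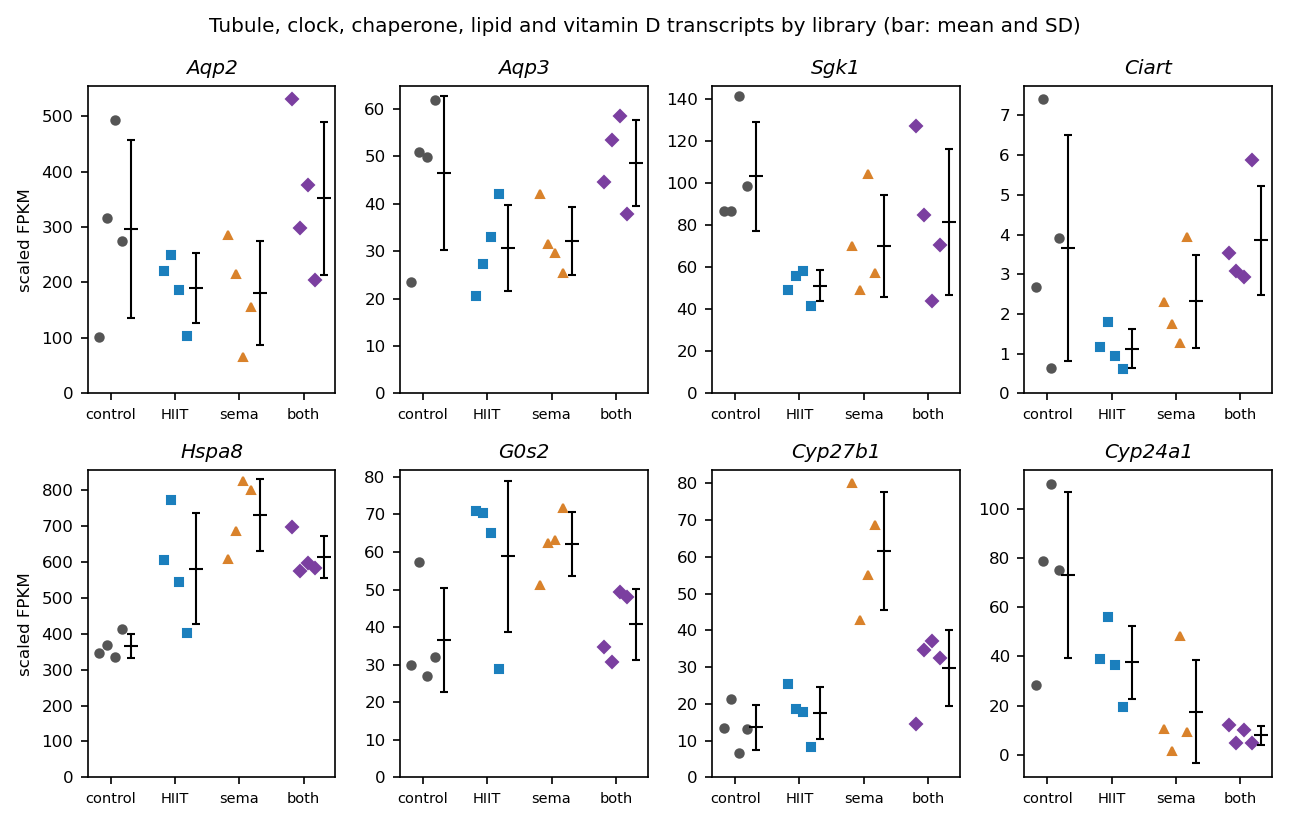
Scaled FPKM (vertical axes, linear) of 8 transcripts of the collecting duct, clock, chaperones, lipid droplets and vitamin D metabolism in each library of control, HIIT, semaglutide (sema) and combined (both), with group mean and SD (n = 4). Control 1 is low for Aqp2 (102) and Aqp3 (23.6), and the semaglutide libraries are high for Cyp27b1 (42.8 to 80).

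Clock genes form a transcriptional loop in which CLOCK and BMAL1 act on E-boxes, CACGTG, and PER, CRY and CIART proteins repress them. Of 18 tested 12 had contrasts above 0 and 6 below (median 0.16), 0 were called, and 2 (11.1%) had an unadjusted p under 0.05, against 2.63% of all genes. Ciart measured 2.68, 7.4, 0.632 and 3.92 scaled FPKM in control, 1.16, 1.79, 0.951 and 0.608 in HIIT, 2.31, 1.76, 1.26 and 3.94 in semaglutide, and 3.54, 3.07, 2.94 and 5.87 in combined. The combined libraries were above all HIIT libraries, but controls ranged over nearly all values of the other groups. The contrast was 1.50 ± 0.54 (95% interval 0.36 to 2.65). Cry1 had means of 1.29 ± 0.478, 0.817 ± 0.293, 1.68 ± 0.304 and 2.3 ± 0.556 in control, HIIT, semaglutide and combined, and a contrast of 0.62 ± 0.24 (95% interval 0.11 to 1.13). The sources used here do not give the hour of tissue collection. Core members Arntl and Clock, whose proteins are the activators, had -0.11 and -0.23, and the repressor Per2 0.0044.

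The promoters of Ciart and Cry1 are printed for their E-boxes, in capitals (5′ to 3′ on the gene's strand, RefSeq, GRCm38.p6; CACGTG reads the same on both strands). They lie at chr3:95882179-95882478 and chr10:85185005-85185304, both on the minus strand. E-boxes start 116, 58 and 44 bases before the annotated start of Ciart and 60 bases before that of Cry1.
Ciart: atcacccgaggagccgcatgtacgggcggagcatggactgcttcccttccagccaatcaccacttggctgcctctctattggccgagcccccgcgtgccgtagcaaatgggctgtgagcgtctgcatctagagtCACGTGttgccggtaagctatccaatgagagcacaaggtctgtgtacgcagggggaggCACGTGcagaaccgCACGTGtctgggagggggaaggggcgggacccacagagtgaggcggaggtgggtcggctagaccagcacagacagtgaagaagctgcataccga
Cry1: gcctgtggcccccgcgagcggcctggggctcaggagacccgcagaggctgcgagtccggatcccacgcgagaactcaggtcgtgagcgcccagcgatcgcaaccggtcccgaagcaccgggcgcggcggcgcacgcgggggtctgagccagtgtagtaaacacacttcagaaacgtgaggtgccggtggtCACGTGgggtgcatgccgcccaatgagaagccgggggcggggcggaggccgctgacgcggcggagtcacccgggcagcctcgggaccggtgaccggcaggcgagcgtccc
Of the same 32851 promoter windows, 2349 (7.15%) hold CACGTG.

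Vitamin D is activated in the proximal tubule by the 1-alpha-hydroxylase Cyp27b1 and inactivated by the 24-hydroxylase Cyp24a1. Cyp27b1 was among the 5 largest negative contrasts once predicted genes were set aside. It measured 13.5, 21.4, 6.53 and 13.1 scaled FPKM in control, 25.4, 18.5, 17.9 and 8.38 in HIIT, 80, 42.8, 55.1 and 68.6 in semaglutide, and 14.5, 34.7, 37.2 and 32.6 in combined. The semaglutide libraries were above all 12 others, and the combined libraries lay between HIIT and semaglutide except combined 1, which was within the control range. Semaglutide against control was 2.16 ± 0.37 without training (limma adjusted p = 0.0695) and 0.74 ± 0.37 under training, and the contrast was -1.42 ± 0.52 (95% interval -2.52 to -0.32).

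Cyp24a1, named here after its values were seen, had means of 73 ± 33.7, 37.6 ± 14.9, 17.4 ± 20.9 and 7.95 ± 3.86 scaled FPKM in control, HIIT, semaglutide and combined. Its contrast of 0.47 ± 0.94 (95% interval -1.53 to 2.48) spanned 0 widely and turned to -0.25 without semaglutide 2. Of the 10 vitamin D and phosphate genes tested 3 were above 0 and 7 below, 0 were called, and 1 (10%) had a p under 0.05, against 2.63% of all genes. The median was -0.19, and 0.18 on FPKM without scaling, where the median of all genes moved to 0.31. The phosphate transporter Slc20a1 had -0.29 ± 0.20.

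Lipid droplet genes had a negative median of -0.22, with 3 of 12 tested above 0 and 9 below. None was called and 2 (16.7%) had a p under 0.05, against 2.63% of all genes. On FPKM without scaling the median of the list was 0.13, beside 0.31 over all genes. Adipocyte markers summed to 571 scaled FPKM in semaglutide 4 against 15.5 to 80.7 in the other 15 libraries, with the adipokine Adipoq at 43.3 against 0 to 5.43 and the fatty acid carrier Fabp4 at 343 against 10.7 to 62.4. The median log2 level of the lipid droplet genes was also highest there, at 5.53 against 4.27 to 5.07. Their median contrast was -0.10 without semaglutide 4, and also -0.10 without control 1. G0s2, an inhibitor of the triglyceride lipase ATGL and the fifth of the negative contrasts once predicted genes were set aside, measured 29.9, 57.2, 27.1 and 32.1 scaled FPKM in control, 71, 70.4, 65.1 and 28.9 in HIIT, 51.1, 62.4, 63.2 and 71.7 in semaglutide, and 34.6, 30.8, 49.4 and 48 in combined. Combined libraries were below all semaglutide libraries, and control 2 and HIIT 4 departed from their groups. The contrast was -1.27 ± 0.40 (95% interval -2.11 to -0.43), and it ran from -1.57 to -1.15 when each library was left out, with -1.20 without semaglutide 4. G0s2 overlaps Lamb3 on the opposite strand. Plin5, a droplet coat protein that tethers droplets to mitochondria, measured 2.58 to 4.48 in semaglutide libraries and 0.807 to 2.29 in all others, with a contrast of -0.52 ± 0.25 (95% interval -1.05 to -0.00059), or -0.38 without semaglutide 4.

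Mitochondrially encoded mRNAs, which specify core subunits of the respiratory chain, had the lowest median of the 40 lists, -0.97. All 13 were below 0 and none had a p under 0.05. The median was -0.60 without scaling, beside 0.31 over all genes. With scaling to the non-mitochondrial sum it was -0.83, beside 0.12 over all genes. These mRNAs are transcribed together from 1 genome and share each library's level, so they are not 13 independent measurements. mt-Nd4, a complex I subunit, measured 5730 to 18200 scaled FPKM in control, 11100 to 44000 in HIIT, 14200 to 29100 in semaglutide and 12900 to 26700 in combined, and its contrast was -1.19 ± 0.70. That of mt-Nd4l, which overlaps it on the same strand, was -0.97 ± 0.57.

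All entries with a mitochondrial gene name (mt-), which may go beyond the mRNAs above, were summed per library. Their share of summed FPKM was 20.5, 37.8, 35.6 and 34.7% in control, 56.7, 55.7, 36.5 and 29.1% in HIIT, 35.4, 42.4, 33.4 and 47.9% in semaglutide, and 38.3, 32.8, 34.4 and 48.8% in combined. HIIT 1 and HIIT 2 were highest, control 1 was lowest, and the 4 groups overlapped. The contrast of the group means was -13.5 percentage points, and an exact two-sided permutation test of control and combined against HIIT and semaglutide libraries, 8 against 8 in 12870 assignments, gave p = 0.166. Without 1 library the contrast ran from -18.6 to -9.42. The exact permutation test, now on pooled means of control and combined against HIIT and semaglutide, gave p = 0.0777 to 0.314. It treats the libraries as exchangeable. Nuclear oxidative phosphorylation subunits had a median of -0.13, with 7 of 24 above 0, and 0.096 without control 1.

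Immune lists shifted with a single library, and most of them changed sign. The MHC class II median kept its side, at -0.16 with all libraries and -1.20 without control 1. The macrophage markers tested had positive contrasts in 8 of 8 (median 0.60) with all libraries and a median of -0.45 without control 1. Lyz2, lysozyme, measured 2060 scaled FPKM in control 1 and 11.6 to 41 in the other 15 libraries, and its contrast went from 1.28 ± 1.54 to -0.39; Cd14, an endotoxin co-receptor, went from 0.73 ± 0.98 to -0.35. MHC class I presentation genes went from a median of 0.31 (9 of 10 above 0) to -0.36, with Tapbp, the peptide loading factor tapasin, going from 0.32 to -0.038 and its relative Tapbpl from 0.31 to -0.060. Tubular injury genes went from 0.27 to -0.34, complement from 0.14 to -0.41, and fibroblast and matrix markers from 0.17 to -0.56. Immediate early genes, of which 10 of 13 were above 0, went from 0.17 to -0.093. Their only p under 0.05 (7.69%, against 2.63% of all genes) belonged to the transcription factor Klf4 (0.65 ± 0.30, and 0.41 without control 1). Jun, part of AP-1, had -0.76 ± 0.49. Across the 40 lists 15 medians changed sign without control 1.

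**Figure D5:**
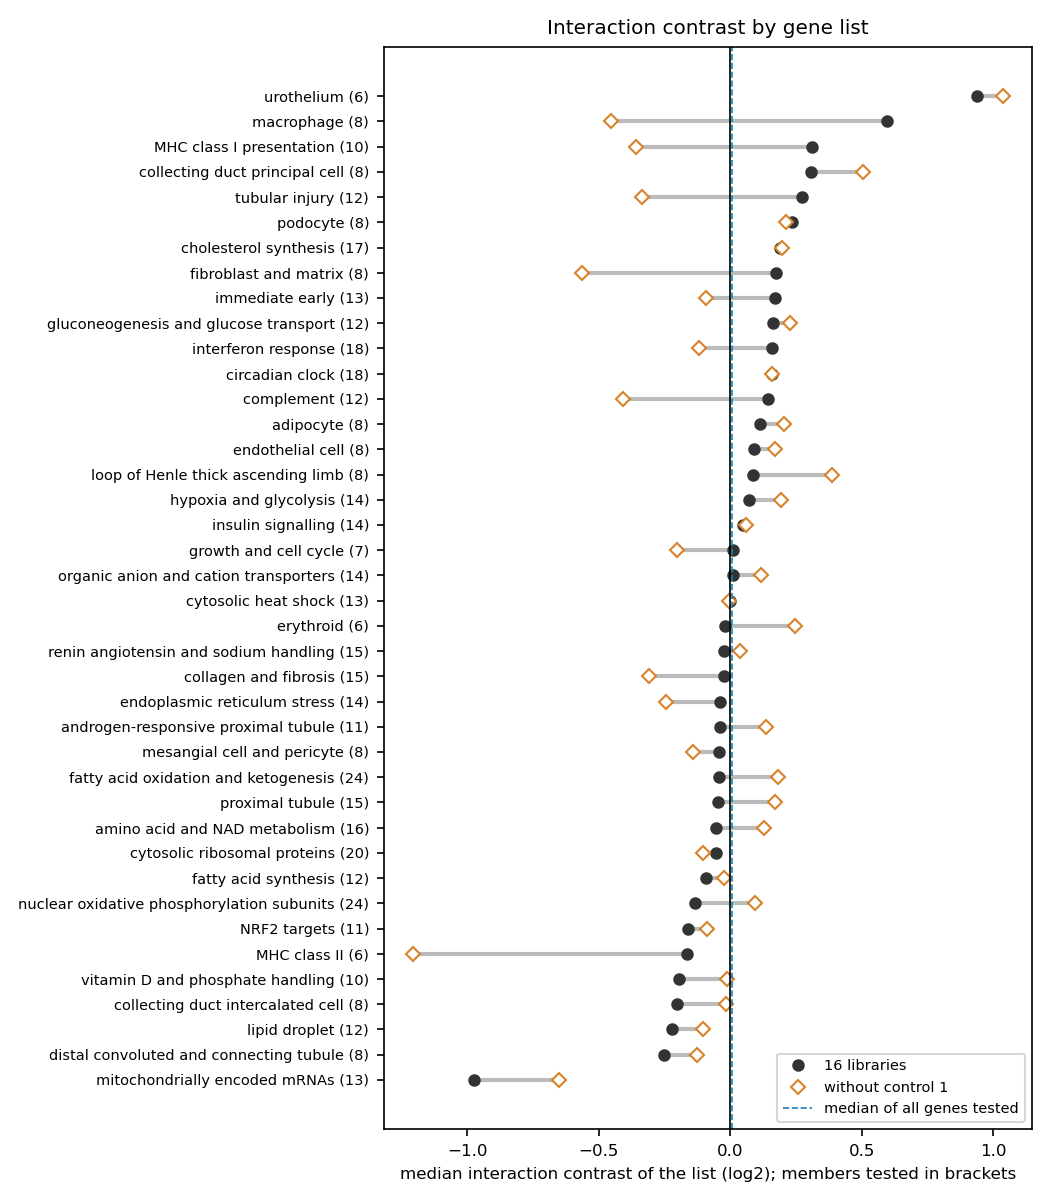
Median interaction contrast (log2, horizontal axis) of the 40 gene lists with at least 5 tested members, with all 16 libraries (filled circles) and without control 1 (open diamonds); numbers in brackets are members tested and the dashed line is the median of all genes. The macrophage and MHC class II medians move farthest left without control 1, and the urothelial and mitochondrial medians keep their side.

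Over all 40 lists 471 distinct genes were tested, 0 were called, and 10 (2.12%) had an unadjusted p under 0.05, against 2.63% of all genes. List medians ran from -0.97 to 0.94, 20 above 0 and 20 below, and 5 had an absolute value of at least 0.3. Proximal tubule markers had a median of -0.045, thick ascending limb 0.087, distal tubule -0.25, intercalated cells -0.20, podocytes 0.24 and endothelium 0.090. Medians were -0.043 for fatty acid oxidation, -0.092 for fatty acid synthesis, 0.19 for cholesterol synthesis, 0.16 for gluconeogenesis and glucose transport, 0.073 for hypoxia and -0.054 for cytosolic ribosomal proteins.

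The remaining genes with the largest contrasts were marked by libraries that switched between a low and a high value. Twsg1, another secreted BMP modulator, measured 15.7 to 17.4 scaled FPKM in all controls, but 19.7, 0.746, 0.448 and 17.1 in HIIT, 18.7, 0.502, 13 and 0.52 in semaglutide, and 19.1, 19.3, 24.9 and 0.136 in combined. Its contrast was 2.72 ± 1.58. B3gnt2, a glycosyltransferase, measured 0.464 to 13 in control, 0.889 to 12.6 in HIIT and 1.44 to 15.7 in semaglutide, against 0.604 to 1.75 in combined, for -1.42 ± 1.06. B3gnt2 overlaps a predicted gene on the same strand.

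Ugt1a9, a glucuronosyltransferase that shares its last exons with the other Ugt1a genes, ran from 0 to 44.5 scaled FPKM (2.75 ± 1.32). The gene with identifier ENSMUSG00000116048 was at 0 in 10 of the 16 libraries and reached 22 in control 1 (2.53 ± 1.55). Dynlt1a, which has near-identical copies, ran from 0.222 to 9.97 (-1.34 ± 0.83). Rdh9, a retinol dehydrogenase that overlaps Rdh16f1, was listed at 0 in all control and combined libraries and in HIIT 1 and 4 and semaglutide 1 and 2, and measured 1.61, 1.59, 1.19 and 1.38 in the other 4 libraries. The authors' counting could split reads of such genes between copies or overlapping genes.

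Receptors of the treatments were weakly expressed or imprecise. Glp1r, the receptor of semaglutide, measured 0.191 to 0.45 scaled FPKM in all 16 libraries, with means of 0.276 ± 0.0669 in control, 0.278 ± 0.0609 in HIIT, 0.342 ± 0.0644 in semaglutide and 0.379 ± 0.0485 in combined, under the level required for testing. Lepr, whose product is defective in these mice, averaged 0.433 ± 0.152, 0.384 ± 0.151, 0.645 ± 0.546 and 0.765 ± 0.242, also too low to be tested. Insr, the insulin receptor, averaged 7.98 ± 0.751, 14.7 ± 3.09, 11.2 ± 4.63 and 14.8 ± 4.26, and its contrast was -0.39 ± 0.34 (95% interval -1.11 to 0.32).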

How the data were processed

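Polyadenylated RNA of kidney was sequenced as stranded, paired-end libraries, per the labels' protocols. STAR 2.7.9a, StringTie 2.1.4, featureCounts 2.0.1, Trimmomatic 0.36, FastQC, CASAVA and the build GRCm39 appear, without roles, in the submitters' processing notes. The kidney table holds FPKM as deposited by the authors for 23650 genes or loci; 1853 loci without a gene name were left out (3.13 to 11.5% of summed FPKM), and 3895 named genes were 0 in every library. FPKM hold no counts, so depth is unknown and precision comes from the spread between libraries.

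A gene was kept where 4 or more libraries reached 1 FPKM. Values were scaled by median ratios, transformed as log2(FPKM + 1) and fitted with limma 3.58.1 (lmFit, contrasts.fit, eBayes with an intensity trend; 12 residual degrees of freedom before moderation) in R 4.3.3, with 4 groups in 1 fit, no block, and Benjamini-Hochberg adjustment over 11551 genes at 0.05. The test was tried on simulated data. No 2 libraries were identical.

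Members and lists were chosen with earlier results of these data known. Genes were named by a rule: the 10 smallest p per direction among genes with p under 0.05 in every fit without 1 library, the 5 largest contrasts per direction, the 2 smallest p of each list with at least 5 tested members, and 3 receptors. Predicted genes, pseudogenes and receptor segments were not named. Some of the genes it selects are not reported here. Coq10b, Fabp4, Arntl, Clock, Per2, Avpr2, Scnn1a, Scnn1b and Scnn1g were outside the rule. The other genes outside it are said to be so where they appear. Liver was not analysed here. GENCODE M21 (GRCm38) served for overlaps and RefSeq GRCm38.p6 for promoters, which 6 of the 7 genes looked up had. Alternatives were pseudocount 0.1, no filter, 5 FPKM, other scalings, replicate block, array weights, and each library left out. Figures were drawn with Python 3.11.15 and matplotlib 3.10.9.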

Additional observations from a re-analysis of the deposited data

Results flagged for a closer look

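In 13 of 120 groups of 4 libraries checked for the named genes, 1 library lay far outside the other 3. These genes were chosen from the same values, some for the largest contrasts whatever their p. The count can therefore not be set against a rate expected by chance. Expression is in scaled FPKM. Cirbp was lowest in combined 1 at 25.2, against 32 to 33.2 in the other combined libraries. Snx16 was lowest in control 1 at 2.22 (others 2.87 to 3.01), and Lekr1 in semaglutide 3 at 1.09 (others 1.38 to 1.44). Slc14a2 was highest in control 3 at 29 (others 1.44 to 5.49).

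Ugt1a9 stood out in HIIT 2 at 1.8 (others 0 to 0.0876), in semaglutide 3 at 9.79 (others 0.269 to 1.41) and in combined 1 at 44.5 (others 0 to 7.37). ENSMUSG00000116048 stood at 13.1 in HIIT 4 and at 0.00146 in semaglutide 1, with the other libraries of these groups at 0. B3gnt2 was highest in HIIT 3 at 12.6 (others 0.889 to 2.14), and Dynlt1a lowest in control 2 at 0.322 (others 4.03 to 4.65). G0s2 was highest in control 2 at 57.2 (others 27.1 to 32.1) and lowest in HIIT 4 at 28.9 (others 65.1 to 71). The part of each library's tissue content in these values was not tested.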

How the results depend on the processing

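The count of 0 interaction genes held under pseudocount 0.1, no filter, a stricter filter, both other scalings, and without each library (0 to 0). It was 1 with array weights (Tsc22d1, -1.02, limma adjusted p = 0.0411). Unadjusted p under 0.05 ran from 214 to 1321 genes without 1 library, the latter without HIIT 4, and was 456 without scaling and 1119 with array weights; without control 1 and HIIT 4 together, chosen after seeing the data, it was 1355, with 0 called. Replicate numbers did not pair the libraries (same-number correlations -0.45 to 0.32 over 24 pairs, 3 of 16 libraries best with their own number); with replicate number as a block, 0 interaction genes were called (268 unadjusted) and combined against HIIT went from 2 to 0. For the other comparisons, array weights called 14 (HIIT against control), 2 (combined against semaglutide), 18 (semaglutide against control) and 25 (combined against HIIT). FPKM without scaling called 1 for each of the last 3, pseudocount 0.1 called 1 and non-mitochondrial scaling 5 for semaglutide against control, and no filter 1 for combined against HIIT. Without 1 library, counts ran from 0 to 4 (HIIT against control), 0 to 5 (semaglutide against control) and 0 to 7 (combined against HIIT), the highest without HIIT 4, and without both libraries they were 9 for semaglutide against control and 35 for combined against HIIT. The sign of the 19 candidate genes in fits without 1 library was fixed by how they were chosen. With these included, contrasts of named genes kept their direction in 1364 of 1374 recomputations and passed in 1. They reversed for Lyz2 (-0.39 to 2.02 without 1 library, lowest without control 1, and -0.063 without both), Cd14 (-0.35 to 1.18, lowest without control 1, -0.088 with array weights and -0.27 without both), Tapbp (-0.038 to 0.46) and Tapbpl (-0.060 to 0.44, and -0.00067 with array weights), both lowest without control 1, Cyp24a1 (-0.25 to 1.19, lowest without semaglutide 2) and Slc20a1 (0.041 without scaling). Without scaling, the median contrast of all genes was 0.31. The causes were not tested. The table holds no read counts, so the limit that depth sets on weakly expressed genes is unknown.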
